A study of Mus musculus with 147 samples.

Results

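Pericytes are the mural cells that wrap the capillary wall, and together with vascular smooth muscle they steady vessels and set their tone. In the kidney the renin cells of the afferent arteriole belong to the same mural family: they descend from stromal precursors that also give rise to smooth muscle, mesangial cells and pericytes, and they release renin, the protease that starts angiotensin production. The genes described here are 8 markers used to recognise pericytes and other mural cells. They were taken as listed symbols: *Rgs5* and *Rgs4*, which encode regulators that switch off G-protein signalling; *Cspg4*, the NG2 proteoglycan, and *Mcam*, the adhesion molecule CD146, both at the cell surface; *Kcnj8* and *Abcc9*, the pore and the sulfonylurea receptor subunit of the vascular ATP-sensitive potassium channel; and *Higd1b* and *Ndufa4l2*, relatives of hypoxia-induced and respiratory chain proteins of the mitochondrion. All 8 were found among the 35438 genes of the files, and the question was how pericyte identity stood beside renin identity in single cells of each genotype.

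The cells were YFP-positive cells sorted from kidneys of C57BL/6 mice, captured 1 to a well and read as full-length polyadenylated RNA. WT wells (n = 51) came from *Ren1c*+/+ mice and Renin-null wells (n = 96, as libraries YFP1 and YFP2 of 48 wells each) from *Ren1c*-/- mice, which lack the renin gene and, by the study's methods, were given saline injections after birth. Both genotypes carried the *Ren1c*-YFP transgene, in which regulatory sequence of the renin gene drives YFP, so both were chosen by a reporter of renin gene activity, and several mice were pooled for a genotype. The labels tie no well to a mouse or a capture. Each genotype was therefore 1 sample, the genotypes were not tested against each other, and an effect of genotype cannot be told apart from one of capture or of library. The genotype labels held in the counts: *Ren1* had 19003442 counts in WT wells and 54 in Renin-null wells.

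Counts per well ran from 26401 through a median of 1525972 to 17124854 in WT and from 3628 through a median of 4107950 to 14505243 in Renin-null. The wells were not alike in quality. The 13 mitochondrially encoded genes made up, at the median, 60.4% of counts in WT wells and 12.4% in Renin-null wells. A filter of at least 100000 counts, at least 1000 detected genes and at most 25% mitochondrial counts kept 15 of 51 WT wells, which hold 75.7% of the WT counts, and 57 of 96 Renin-null wells, which hold 89%. In addition, 4 pairs of Renin-null wells were near-identical, with correlations of at least 0.974 where the next highest pair had 0.896. Most of these pairs joined a YFP1 well to a YFP2 well, so the libraries are not wholly separate. With each pair counted once, 92 Renin-null wells remain, and that count is given beside some of the results that these pairs move.

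*Rgs5* was the only one of the 8 markers that reached 10 counts per 1000000 in nearly every well of both genotypes. It alone made up 92.8% of the summed counts of the 8 markers in WT and 95.1% in Renin-null. *Rgs4*, *Cspg4*, *Mcam* and *Ndufa4l2* reached 10 counts per 1000000 in a minority of WT wells, and *Kcnj8*, *Abcc9* and *Higd1b*, which are among the markers that best set pericytes apart from arteriolar smooth muscle, were at or near 0 in WT. The label of pericyte markers is therefore met in WT wells by genes shared among mural cells and not by those 3 genes, and the set is called mural markers from here on.

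*Rgs5* (ENSMUSG00000026678.10, chr1:169655501-169695813 on GRCm38, plus strand) and *Rgs4* (ENSMUSG00000038530.11, chr1:169741477-169747642, minus strand) are neighbours, 45.7 kb apart with no annotated gene between them, and face each other tail to tail. *Kcnj8* (ENSMUSG00000030247.9, chr6:142564837-142571614, minus strand) and *Abcc9* (ENSMUSG00000030249.15, chr6:142587862-142702315, minus strand) form a second neighbouring pair, with a gap of 16.2 kb and no annotated gene between. The other 4 markers stand apart from these pairs: *Mcam* (ENSMUSG00000032135.15) at chr9:44134469-44142727, *Cspg4* (ENSMUSG00000032911.6) at chr9:56865033-56899870, *Ndufa4l2* (ENSMUSG00000040280.10) at chr10:127514967-127517154 and *Higd1b* (ENSMUSG00000020928.14) at chr11:102835849-102838040, all on the plus strand. Of the 8, 6 matched an entry of the RefSeq promoter table (GRCm38.p6), and *Higd1b* and *Ndufa4l2* did not. The 250 bases before the start of *Rgs5* (chr1:169655251-169655500), *Rgs4* (chr1:169747643-169747892) and *Kcnj8* (chr6:142571615-142571864) are shown because these 3 genes span the range of levels, from the highest marker to the lowest, and because 2 of them are the neighbours with very different levels. Each is written on the strand of its gene, and capitals mark the core TGACG of the cAMP response element or its reverse complement CGTCA:
Rgs5: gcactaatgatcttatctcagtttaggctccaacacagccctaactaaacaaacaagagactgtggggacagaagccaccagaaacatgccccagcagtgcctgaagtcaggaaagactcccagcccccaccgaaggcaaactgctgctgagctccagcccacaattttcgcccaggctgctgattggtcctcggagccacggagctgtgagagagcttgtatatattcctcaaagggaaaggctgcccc
Rgs4: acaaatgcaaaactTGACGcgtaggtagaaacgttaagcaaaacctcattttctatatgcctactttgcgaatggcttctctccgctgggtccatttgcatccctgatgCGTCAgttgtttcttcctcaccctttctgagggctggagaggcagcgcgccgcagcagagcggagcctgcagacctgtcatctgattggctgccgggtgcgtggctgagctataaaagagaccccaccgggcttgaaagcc
Kcnj8: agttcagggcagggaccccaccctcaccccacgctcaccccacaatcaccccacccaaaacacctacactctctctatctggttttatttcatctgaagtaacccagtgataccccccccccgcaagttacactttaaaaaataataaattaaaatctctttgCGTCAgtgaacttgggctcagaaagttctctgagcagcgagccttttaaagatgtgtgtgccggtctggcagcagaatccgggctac

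The core was searched on both strands because renin cells respond to cAMP. The *Rgs5* window held none, the *Rgs4* window held 2 (starting 236 and 141 bases before the gene start) and the *Kcnj8* window held 1 (87 bases before it). In the *Mcam* window (chr9:44134408-44134657) 2 cores, at 29 and 26 bases before the start, overlapped to form the full palindrome TGACGTCA. Of 32851 promoter windows of the same length, 17.8% held the core. The *Abcc9* window (chr6:142702275-142702524) held the RBPJ core TGGGAA, which was present in 21.6% of windows, at 221 bases before the start, and overlapping it at 219 bases the reverse complement of the M-CAT element CATTCC, which was present in 12.6%. The *Cspg4* window (chr9:56864854-56865103) held none of these, and no window of the 6 held a CArG box, the binding sequence of serum response factor, which 1.47% of all windows held. The RefSeq starts of *Mcam*, *Cspg4* and *Abcc9* lie inside the gene spans given above, so these windows reach into them. These matches describe the letters only.

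*Rgs5* is the regulator of G-protein signalling most often used to mark pericytes. In WT wells its level ran from 32.7 CPM (counts per 1000000 counts of the well) through a median of 552.5 to 57876, and in Renin-null wells from 0 through a median of 6002 to 44084. All 51 WT wells (100%, exact 95% interval 93 to 100%) and 95 of 96 Renin-null wells (99.0%, 94.3 to 100%) held at least 10 CPM. The ranges overlapped almost completely, and the Renin-null median lay well above the WT median. The 1 well without *Rgs5* was the shallowest of all, with 3628 counts. Summed over wells, the level was 11102 CPM in WT wells and 14156 CPM in Renin-null wells, a log2 ratio of 0.35 or 1.28-fold. Each library gave the same direction, with log2 ratios of 0.27 for YFP1 and 0.41 for YFP2. The gap between the medians was narrower in wells of low mitochondrial share. In the wells passing the filter, the WT median was 12890.2 CPM and the Renin-null median 15241 CPM, and *Rgs5* followed the mitochondrial share over all wells with a Spearman rho of -0.73 in WT (n = 51) and -0.41 in Renin-null (n = 96). With TMM factors, which scale for composition, the *Rgs5* ratio changed sign to -0.35, and the difference of mean log2(CPM + 1) over wells was 1.47. The part of RNA quality in the difference between genotypes was not tested.

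Per kilobase of its longest coding transcript, *Rgs5* stood at 2710 CPM in WT, rank 6 of 21244 protein-coding nuclear genes, and at 3456 CPM in Renin-null, rank 4. On this per-length scale the order of the other markers in WT was *Ndufa4l2* at 118 CPM, *Mcam* at 93.2, *Rgs4* at 88.8, *Cspg4* at 25.8, *Abcc9* at 0.0627 and *Higd1b* at 0.00687, with *Kcnj8* at 0. In Renin-null *Mcam* came second at 92.4, followed by *Ndufa4l2* at 81.5, *Rgs4* at 60.4, *Cspg4* at 18.0, *Abcc9* at 5.84, *Higd1b* at 4.59 and *Kcnj8* at 0.179. The step from *Rgs5* to the next marker was thus far wider than the steps among *Ndufa4l2*, *Mcam* and *Rgs4*, whose order differed between genotypes and whose levels over single wells overlapped. As a scale, *Ren1* stood at 60316 CPM per kilobase in WT, *Tagln*, a smooth muscle actin-binding protein, at 2177 and *Acta2*, smooth muscle actin, at 2137.

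**Figure D1:**
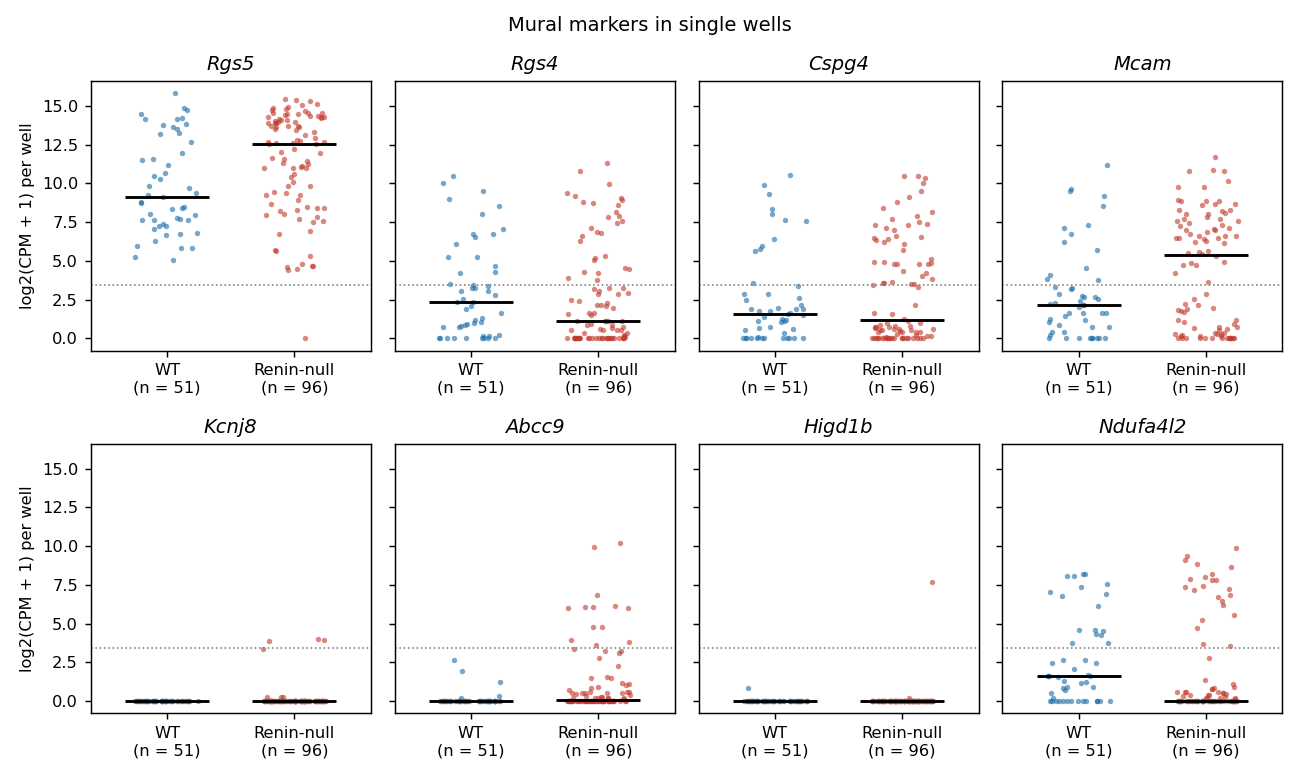
Level of each of the 8 mural markers as log2(CPM + 1), with 1 point a well, WT (n = 51, blue) and Renin-null (n = 96, red). Black bars are medians and the dotted line marks 10 CPM. *Rgs5* lies above the line in all wells but 1, *Kcnj8* crosses it in 3 Renin-null wells and *Higd1b* in 1.

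*Rgs4* encodes a second regulator of G-protein signalling. Its level ran from 0 through a median of 4.22 CPM to 1460 in WT and from 0 through a median of 1.21 CPM to 2562 in Renin-null. It reached 10 CPM in 17 of 51 WT wells (33.3%, 20.8 to 47.9%) and in 29 of 96 Renin-null wells (30.2%, 21.3 to 40.4%). Unlike its neighbour *Rgs5*, *Rgs4* was near 0 in most wells of both genotypes. Its summed level was 261 CPM in WT wells and 178 CPM in Renin-null wells, a log2 ratio of -0.56 or 1.47-fold lower. The 2 Renin-null libraries differed in direction, with log2 ratios of 0.11 for YFP1 and -1.52 for YFP2, and the difference between them was not tested. The mean over wells of CPM gave 0.17, also in the other direction.

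*Cspg4*, the NG2 proteoglycan, is carried on the surface of pericytes and smooth muscle. Its level ran from 0 through a median of 1.95 CPM to 1530 in WT and from 0 through a median of 1.28 CPM to 1417 in Renin-null. It reached 10 CPM in 12 of 51 WT wells (23.5%, 12.8 to 37.5%) and in 43 of 96 Renin-null wells (44.8%, 34.6 to 55.3%). More Renin-null wells therefore held it at that level, while its summed level over all wells was lower there, at 210 CPM in WT wells and 146 CPM in Renin-null wells (log2 ratio -0.52, 1.43-fold lower). A single WT well gave 41.3% of the WT counts, and without the highest well of each genotype the log2 ratio was -0.15. The direction was not steady: in thinned wells the summed level was 82.6 CPM for WT and 112 CPM for Renin-null, and the difference of mean log2(CPM + 1) was 0.52.

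*Mcam*, or CD146, is an adhesion molecule of mural and endothelial cells. Its level ran from 0 through a median of 3.49 CPM to 2290 in WT and from 0 through a median of 40.8 CPM to 3359 in Renin-null. It reached 10 CPM in 14 of 51 WT wells (27.5%, 15.9 to 41.7%) and in 55 of 96 Renin-null wells (57.3%, 46.8 to 67.3%). The summed levels were nearly equal, at 278 CPM in WT wells and 276 CPM in Renin-null wells (log2 ratio -0.01), with 46.6% of the WT counts in 1 well. Without the highest wells the ratio was 0.55, YFP1 alone gave -0.96 and YFP2 alone 0.48, so the summed value had no steady direction. *Mcam* shares 17 bases with a gene on the opposite strand, *Gm10687*, and the library did not keep strand.

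*Ndufa4l2* encodes a hypoxia-responsive relative of a subunit of the respiratory chain. Its level ran from 0 through a median of 2.08 CPM to 300.3 in WT and from 0 through a median of 0 CPM to 948 in Renin-null. It reached 10 CPM in 17 of 51 WT wells (33.3%, 20.8 to 47.9%) and in 23 of 96 Renin-null wells (24.0%, 15.8 to 33.7%). Its summed level was 110.0 CPM in WT wells and 76.1 CPM in Renin-null wells, a log2 ratio of -0.53 or 1.45-fold lower, and both libraries gave the same direction (-0.43 for YFP1 and -0.63 for YFP2). The wells passing the filter were farther apart: 13 of 15 WT wells (86.7%, 59.5 to 98.3%) against 19 of 57 Renin-null wells (33.3%, 21.4 to 47.1%). The direction was not the same on every scale, since the mean over wells of CPM gave 0.47 and thinned wells 0.39. It shares 32 bases with *Shmt2* on the opposite strand.

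The same filter lifted the other middle markers in WT as well. *Rgs4*, *Cspg4* and *Mcam* each reached 10 CPM in 9 of 15 filtered WT wells (60%, 32.3 to 83.7%). In filtered Renin-null wells *Rgs4* and *Cspg4* did so in 22 of 57 (38.6%, 26.0 to 52.4%) and *Mcam* in 32 of 57 (56.1%, 42.4 to 69.3%). The higher shares of Renin-null wells with *Cspg4* and *Mcam* over all wells were thus not seen among filtered wells, where the WT share was the higher for each gene. The WT shares rest on 15 wells. The intervals are over the pooled wells of a genotype and cannot compare the genotypes, and that difference was not tested. With each well thinned to 62000 counts, which left 49 WT and 83 Renin-null wells, a count of *Mcam* was found in 42.9% of WT wells (28.8 to 57.8%) and 62.7% of Renin-null wells (51.3 to 73%), a count of *Cspg4* in 26.5% (14.9 to 41.1%) and 44.6% (33.7 to 55.9%), and a count of *Rgs4* in 36.7% (23.4 to 51.7%) and 38.6% (28.1 to 49.9%).

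*Kcnj8*, the pore subunit of the channel, had 0 counts in the 51 WT wells, which allows a share of wells with a count of up to 5.88% by the limit of 3 wells in 51 and of up to 6.98% by the exact interval. In Renin-null it had 182 counts in 7 of 96 wells, with a median of 0 and a highest value of 15.4 CPM. Of the wells at 10 CPM or more there were 3, all of library YFP2 (3 or 2 with near-identical wells counted once). The summed level was 0.456 CPM, which against a floor of 3 counts for WT gives a log2 ratio of 4.91 or 30.1-fold, with a lower limit of 4.60 on the log2 scale for counting error. A near-identical pair of YFP2 wells held 139 of the 182 counts, and with the pairs counted once 101 or 124 counts were left, depending on which well of a pair was kept, and the log2 ratio was 4.17 or 4.44. In thinned wells 4 counts were left in Renin-null and 0 in WT. The log2 ratio to that floor was -0.35, which gives no direction, since the WT level in it is the floor alone. *Col3a1*, one of the fibroblast markers, reached 10 CPM in 53 of 96 Renin-null wells. All 3 of the *Kcnj8* wells at 10 CPM also held markers of other cell types. The first held 5 counts of *Kcnj8* in a total of 365262 counts, with 1881 CPM of 6 proximal tubule markers, led by *Slc34a1*, 76.7 CPM of 5 fibroblast markers, and only 38.3 CPM of *Rgs5* and 11.0 CPM of *Acta2*. The second, at 14.7 CPM of *Kcnj8*, held 962 CPM of proximal tubule, 530 CPM of loop and distal tubule and 1291 CPM of collecting duct markers, with 379 CPM of fibroblast and 928 CPM of mesangial markers, beside 1592 CPM of *Rgs5*. The third, at 15.4 CPM, held 186 CPM of proximal tubule, 356 CPM of fibroblast and 1204 CPM of mesangial markers beside 24109 CPM of *Rgs5*. Pooled over all Renin-null wells, proximal tubule markers stood at 204 CPM, loop and distal tubule at 109 and collecting duct at 45.7. Fibroblast markers stood at 807 CPM and mesangial at 2785. The third well lay below the pooled level for each type named, and the second below it for fibroblast and mesangial markers. The first lay below it for fibroblast markers.

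*Abcc9*, the receptor subunit of the same channel, ran from 0 through a median of 0 to 5.18 CPM in WT, where 93 counts lay in 5 wells. In Renin-null it ran from 0 through a median of 0.0616 to 1155 CPM, with 17480 counts in 48 wells. None of the WT wells and 13 of 96 Renin-null wells (13.5%, 7.41 to 22.0%) reached 10 CPM, and 3 Renin-null wells exceeded every WT well by over 100 CPM. The summed level was 0.470 CPM in WT wells and 43.8 CPM in Renin-null wells, a log2 ratio of 6.54 (6.25 to 6.85 for counting error) or 93.3-fold. The ratio was 6.69 in YFP1 and 6.41 in YFP2, although 1 well gave 89.8% of the YFP1 counts, and it was 6.66 without the highest well of each genotype and 6.30 in filtered wells. With near-identical wells counted once, 11 or 12 of 92 wells reached 10 CPM, depending on which well of a pair was kept, and the ratio was 6.59 in either case. As a difference of mean log2(CPM + 1) over wells it was 1.06, since most Renin-null wells held little or none. The span of *Abcc9*, 114454 bases, overlaps that of the antisense gene *5330439B14Rik* by 11868 bases, and without strand reads from that stretch cannot be told apart.

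*Higd1b* had 1 count in WT and 1345 counts in Renin-null, of which 1344 lay in 1 well of YFP1 at 205 CPM. The log2 ratio of the sums was 9.38 (6.90 to 14.69 for counting error), and without that well no ratio could be given. This well held 13445 CPM of *Rgs5*, 223 CPM of *Mcam*, 75 CPM of *Cspg4* and 32.1 CPM of *Rgs4*, but 0.763 CPM of *Akr1b7*. In it, proximal tubule markers summed to 282 CPM, fibroblast markers to 169 CPM and mesangial markers to 3120 CPM. Pooled over all Renin-null wells these stood at 204, 807 and 2785 CPM. It was the single well in the files in which *Higd1b* and 4 other markers of the set stood together.

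Of the 8 markers, 3 (*Kcnj8*, *Abcc9* and *Higd1b*) were at least 2-fold higher in Renin-null by summed counts, none was at least 2-fold lower and 5 lay within 2-fold. With TMM factors, however, *Rgs4*, *Cspg4* and *Ndufa4l2* were at least 2-fold lower (-1.26, -1.22 and -1.24). On that scale 43.1% of all genes were at least 2-fold higher, and the share of all genes lower is not given. The TMM factors lower the ratio of every gene by the same step. The 3 lower markers are therefore not read as a result about the set. As differences of mean log2(CPM + 1), which weight each well equally, the 3 markers at least 2-fold higher were *Rgs5* (1.47), *Mcam* (1.603) and *Abcc9* (1.06), beside 9.03% of all genes. Across the 18720 genes with a ratio of summed counts, 52.4% were at least 2-fold higher and 18.5% at least 2-fold lower (70.9% either way). By summed counts a share of 3 in 8 was thus not above the background. By mean log2(CPM + 1), a scale that understates low genes, it was above the 9.03%. The median log2 ratio of the 8 was 0.17 beside 1.17 over all genes. The 5 markers with substantial counts in both genotypes lay below 1.17, but they are those left once the 3 near 0 in WT are set aside. The median of all genes keeps genes near 0 in WT, so the sets are unlike and no conclusion is drawn. As differences of mean log2(CPM + 1) over wells the order of the medians was the opposite, with 0.34 for the 8 and 0.13 for all genes. With TMM factors the medians were -0.53 for the 8 and 0.47 for all genes.

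**Figure D2:**
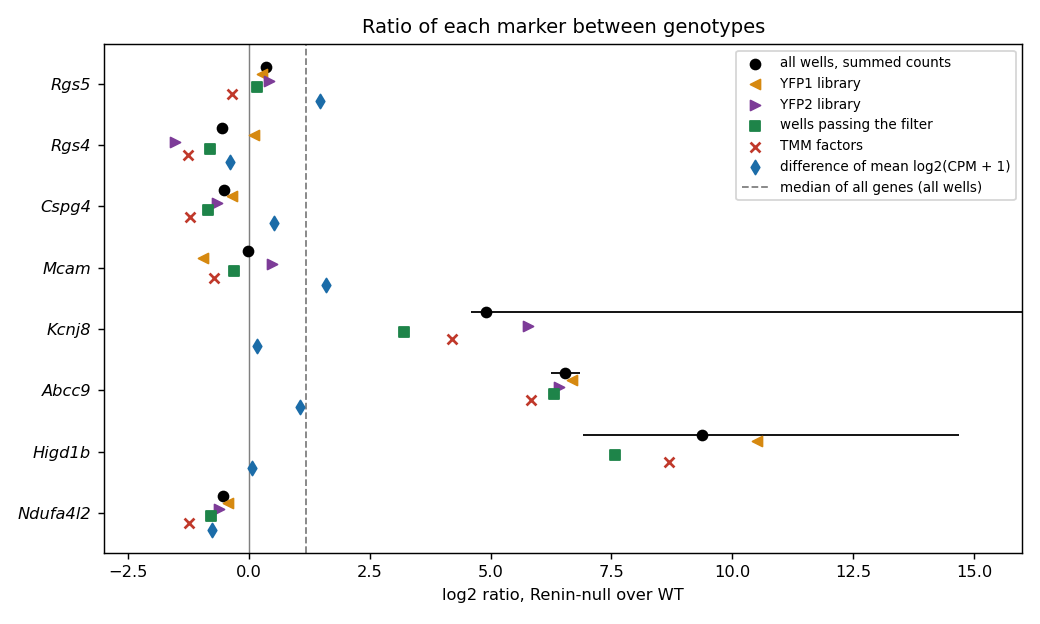
Log2 ratio of summed CPM, Renin-null over WT, for each mural marker, over all wells (black, with the exact interval for counting error, open to the right for *Kcnj8*), in each Renin-null library alone, in wells passing the filter and with TMM factors. Blue diamonds are the difference of mean log2(CPM + 1), a scale that understates low genes, and the dashed line is the median of all genes, 1.17. *Rgs4* and *Mcam* have their YFP1 and YFP2 values on opposite sides of 0, and *Abcc9* has both above 6.

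In single wells the markers were held in differing combinations. In WT, 25 of 51 wells held *Rgs5* as their only marker at 10 CPM or more, 6 held 2 markers, 10 held 3, 6 held 4 and 4 held 5. In Renin-null, 1 well held none, 20 held *Rgs5* only, 23 held 2, 25 held 3, 16 held 4, 9 held 5 and 2 held 6. At least 2 markers were found in 51.0% of WT wells (36.6 to 65.2%) and 78.1% of Renin-null wells (68.5 to 85.9%), and no well of either genotype held 7 or 8. The 2 wells with 6 markers were a near-identical pair, and with such pairs counted once 1 of 92 Renin-null wells held 6 markers, 8 held 5, 15 held 4 and 77.2% held at least 2. Among filtered wells the order was the opposite, with at least 2 markers in all 15 WT wells (100%, 78.2 to 100%) and in 44 of 57 Renin-null wells (77.2%, 64.2 to 87.3%). The filter thus raised the share in WT, where all 25 wells with *Rgs5* alone had over 25% mitochondrial counts, and left it almost level in Renin-null.

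**Figure D3:**
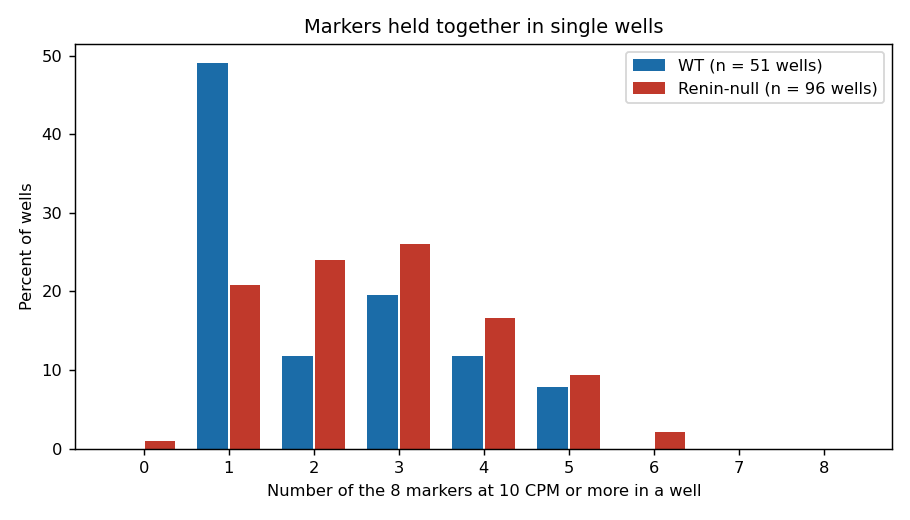
Percent of WT wells (blue, n = 51) and Renin-null wells (red, n = 96) by the number of the 8 markers at 10 CPM or more. The tallest WT bar is at 1 marker (25 wells, *Rgs5* alone in each), and the tallest Renin-null bar is at 3 (25 wells).

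The commonest combination after *Rgs5* alone was *Rgs5* with *Rgs4* and *Ndufa4l2* in WT (6 wells) and *Rgs5* with *Cspg4* and *Mcam* in Renin-null (15 wells). Of these 15 Renin-null wells, 13 had over 25% mitochondrial counts and 2 passed the filter, whereas 4 of the 6 WT wells passed it. Of the 17 WT wells with *Rgs4* and the 17 with *Ndufa4l2*, 13 were the same wells. In Renin-null 13 wells held both among 29 with *Rgs4* and 23 with *Ndufa4l2* (11 among 27 and 20 with near-identical wells counted once). The 2 surface proteins *Cspg4* and *Mcam* were together in 9 WT wells, of 12 and 14 that held them, and in 33 Renin-null wells, of 43 and 55 (31 of 41 and 51 with near-identical wells counted once). Their levels correlated over wells with a Spearman rho of 0.54 in WT and 0.39 in Renin-null, whereas *Rgs4* and *Cspg4* had -0.02 and 0.27. These correlations are descriptions over the wells of 1 sample each, which differ in depth and RNA quality.

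The 2 subunits of the potassium channel did not both reach 10 CPM in any well. With only 3 *Kcnj8* and 13 *Abcc9* wells at that limit among 96 Renin-null wells, this absence cannot show that they are held apart. Over all 96 Renin-null wells their levels had a Spearman rho of 0.27, with a *Kcnj8* count in only 7 of them. In 1 near-identical pair of wells the subunits fell on either side of 10 CPM. There *Kcnj8* was at 14.7 and 9.14 CPM and *Abcc9* at 7.61 and 26.4 CPM. In the 3 Renin-null wells at 10 CPM or more of *Kcnj8*, the *Abcc9* levels were 7.61, 0 and 8.35 CPM. Of the 3 wells above 100 CPM of *Abcc9*, *Kcnj8* was at 0, 0 and 0.181 CPM. All 3 of these *Abcc9* wells held *Rgs5* (13284, 21525 and 6618 CPM), *Acta2* (1290, 4018 and 3407 CPM) and *Akr1b7* (2671, 467 and 209 CPM). Endothelial or tubule markers passed 100 CPM in 2 of them: the highest for *Abcc9* held 1637 CPM of 7 endothelial markers, led by *Emcn*, and 574 CPM of 6 proximal tubule markers, and the next highest held 911 CPM of proximal tubule markers, led by *Lrp2*. That well also held 11634 CPM of 3 mesangial markers, led by *Itga8*, and 62.2 CPM of fibroblast markers. The third held 3268 CPM of mesangial and 130 CPM of fibroblast markers, and the highest 202 and 155 CPM. Pooled over all Renin-null wells, endothelial markers stood at 225 CPM and proximal tubule markers at 204. Mesangial markers stood at 2785 CPM and fibroblast markers at 807, above the fibroblast value of each of these wells.

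Renin identity was read from *Ren1* and, since *Ren1* is deleted in one genotype, from *Akr1b7*, an aldo-keto reductase expressed with renin in juxtaglomerular cells. *Akr1b7* ran from 12.8 through a median of 254 to 17648 CPM in WT and from 0 through a median of 375.5 to 9710 CPM in Renin-null. All 51 WT wells held *Ren1*, *Akr1b7* and *Rgs5* together at 10 CPM or more. In Renin-null, 73 of 96 wells held *Akr1b7*, all of them with *Rgs5*, and 22 further wells held *Rgs5* without *Akr1b7*. *Akr1b7* was thus held by 76% of Renin-null wells. The wells of the lesser markers that held *Akr1b7* numbered 27 of 29 wells for *Rgs4*, 36 of 43 for *Cspg4*, 44 of 55 for *Mcam*, 20 of 23 for *Ndufa4l2*, all 13 for *Abcc9*, 2 of 3 for *Kcnj8* and 0 of 1 for *Higd1b*, which for *Cspg4* and *Mcam* was close to the share among all wells. No Renin-null well at 10 CPM of *Abcc9* thus lacked this renin cell gene. With near-identical wells counted once, the wells with *Akr1b7* were 25 of 27 for *Rgs4* and 34 of 41 for *Cspg4*. They were 40 of 51 for *Mcam* and 17 of 20 for *Ndufa4l2*.

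Over wells, the sum of the 8 markers, which is nearly *Rgs5* alone, followed *Akr1b7* in Renin-null with a Spearman rho of 0.66 and a Pearson r of 0.70 (n = 96 wells), and in the filtered wells with a rho of 0.51 (n = 57). Without *Rgs5* the rho was 0.41. In WT the rho was 0.48 with *Akr1b7* and 0.27 with *Ren1* (n = 51), but in the 15 filtered WT wells both changed sign, to -0.30 and -0.46. With mitochondrial genes left out of the total, the WT values were 0.38 and 0.04. The positive WT values were thus not found without the wells of high mitochondrial share. The wells of a genotype share their preparation, and in each well all values are divided by the same total.

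**Figure D4:**
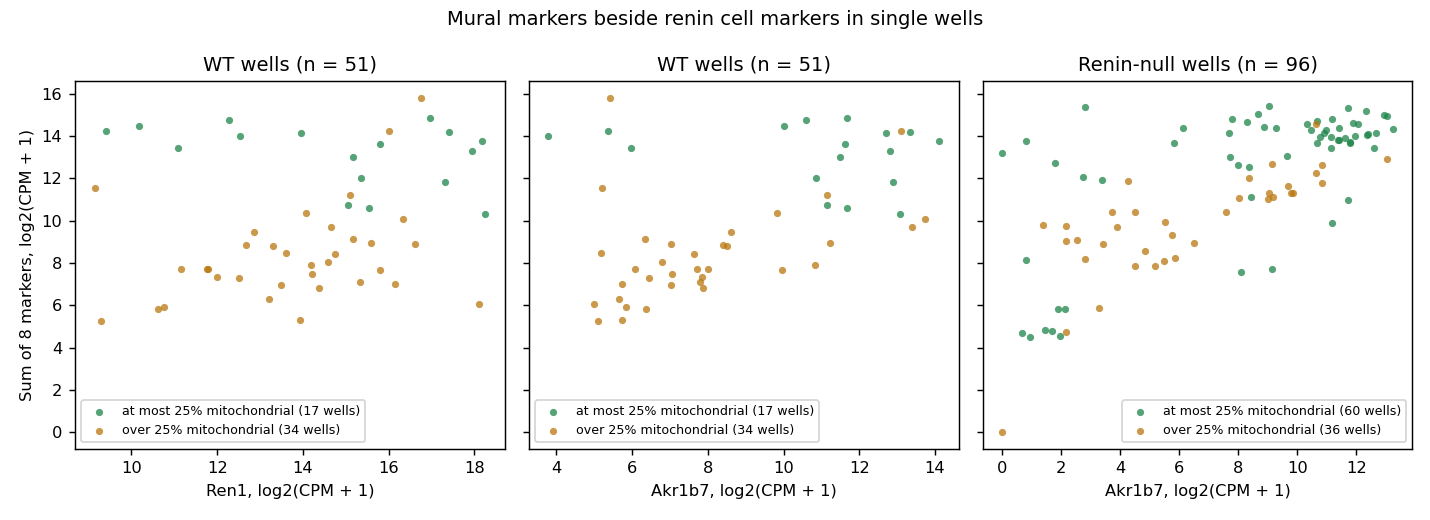
Sum of the 8 mural markers against *Ren1* (WT, left) and *Akr1b7* (WT, middle, and Renin-null, right), all as log2(CPM + 1), with 1 point a well and wells coloured by a mitochondrial share of at most 25% (green) or over 25% (orange). In WT most orange wells lie below the green ones, and the green WT wells show no upward trend.

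The genes whose pattern over thinned wells was most like that of *Rgs5* were contractile and cytoskeletal genes in part. In WT (n = 49 wells, 1883 genes) the 5 highest Spearman values were for *Actg1*, cytoplasmic actin (0.73), *Tagln* (0.72), *Notch2*, a Notch receptor (0.70), *Btg2*, an antiproliferative gene (0.70), and *Klf13*, a transcription factor (0.70), beside a median of 0.29 over all genes. In Renin-null (n = 83 wells, 3047 genes) they were for *Gm45551* (0.75), *Sparcl1*, a matrix-associated glycoprotein (0.74), *Tagln* (0.72), *Zfp729a*, a zinc finger gene (0.72), and *Gm9973* (0.70), beside a median of 0.11. *Tagln* was on both lists. For the sum of the 8 markers *D8Ertd738e* (0.71) took the place of *Klf13* in WT and *Myl9* (0.70), a smooth muscle myosin light chain, that of *Gm9973* in Renin-null. The mitochondrial share had a rho of -0.72 with *Rgs5* in these WT wells and -0.35 in these Renin-null wells.

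**Figure D5:**
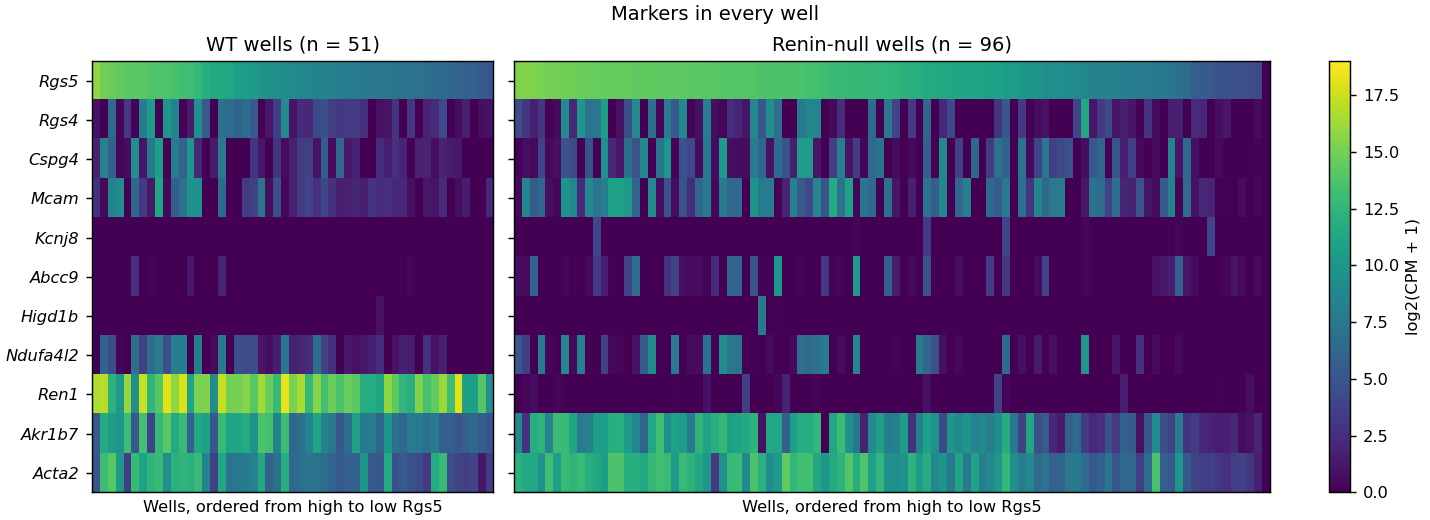
The 8 mural markers with *Ren1*, *Akr1b7* and *Acta2* in every well as log2(CPM + 1), wells ordered from high to low *Rgs5* within WT (n = 51) and Renin-null (n = 96). *Ren1* is bright throughout WT and dark in Renin-null, and *Akr1b7* and *Acta2* fade together with *Rgs5* toward the right of the Renin-null panel.

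Other genes linked with pericytes did not share a direction. Of 19 further pericyte-associated genes, 18 had a ratio, 8 were at least 2-fold higher in Renin-null, 3 at least 2-fold lower and 7 within 2-fold, with a median log2 ratio of 0.84. These shares were near those of all genes, of which 52.4% were higher and 18.5% lower. The 3 lower genes were *Pdgfrb*, the receptor that draws pericytes to vessels (503.5 CPM in WT wells and 83.4 CPM in Renin-null wells, log2 ratio -2.59), *Notch3*, the mural Notch receptor (310 and 146 CPM, -1.09), and *Ednra*, the endothelin receptor (299 and 141 CPM, -1.08). All 3 were lower in both libraries, with log2 ratios in YFP1 and YFP2 of -2.69 and -2.52, -1.99 and -0.62, and -2.78 and -0.43. By the mean over wells of CPM only 1 gene of the list was at least 2-fold lower. *Pdgfrb* reached 10 CPM in 18 of 51 WT wells and 32 of 96 Renin-null wells. Among the most abundant of the list, *Itga7*, an integrin of muscle, had a ratio of 0.72 (-0.27 in YFP1 and 1.22 in YFP2), *S1pr3*, a sphingosine phosphate receptor, -0.88 and *Gucy1a1*, a subunit of the nitric oxide receptor, 0.56. *Vtn*, vitronectin, was among the 8 higher genes with 99.6% of its Renin-null counts in 1 well, and *Art3* had 66.7% in 1 well.

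Within the RGS family of 21 genes, 20 had a ratio, 9 were at least 2-fold higher, 4 at least 2-fold lower and 7 within 2-fold, again near the 52.4% and 18.5% of all genes. *Rgs5* held most of the counts of the family in both genotypes, since all 21 genes summed to 12211 CPM in WT wells and 15111 CPM in Renin-null wells. *Rgs2*, which like *Rgs5* acts on vasoconstrictor signals, stood at 483 and 503.7 CPM (log2 ratio 0.06, with -0.19 in YFP1 and 0.24 in YFP2). *Rgs6* stood at 209 and 216 CPM (0.05, with -1.14 in YFP1 and 0.61 in YFP2), with 79.6% and 71.5% of its counts in 1 well of each genotype. *Rgs3* was 14.7-fold lower in Renin-null, at 140 CPM in WT wells and 9.49 CPM in Renin-null wells, with 53.6% of the WT counts in 1 well. *Rgs12* stood at 1.87 and 27.7 CPM with 95.1% of the Renin-null counts in 1 well of YFP2, and in YFP1 it was lower (-6.82).

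The paralogs give a second view of the channel and of the mitochondrial proteins. *Kcnj11*, the pore paralog of *Kcnj8* known from pancreatic beta cells, stood at 74.2 CPM in WT wells and 2.10 CPM in Renin-null wells (log2 ratio -5.14), in 5 WT wells and 1 Renin-null well at 10 CPM or more. *Abcc8*, its usual receptor partner and the paralog of *Abcc9*, stood at 6.46 and 4.99 CPM (-0.37, with 0.75 in YFP1 and -5.75 in YFP2), nearly all in 1 well of each genotype. *Ndufa4* stood at 106 and 212 CPM (1.01), *Higd1a* at 178 and 361 CPM (1.02) and *Higd2a* at 26.1 and 38.9 CPM (0.58), while *Higd1c* had no count.

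Markers of contractile smooth muscle stood close to level by summed counts, and the calls differed with the scale. With TMM factors 3 of the 8 were at least 2-fold lower. The share of all genes lower on that scale is not given, so that count is not read as a result. At least 2-fold higher were 3 by the mean over wells of CPM, 6 by the difference of mean log2(CPM + 1) and 4 each in thinned wells and with SCTransform. The shares of all genes at least 2-fold higher on these scales were 59.1%, 9.03%, 56.9% and 62.4%. Only the 6 of 8 by mean log2(CPM + 1), a scale that understates low genes, lay above its share. Of 8 genes, 1 (*Actg2*) was at least 2-fold higher by summed counts and 7 were within 2-fold, beside 52.4% of all genes higher and 18.5% lower, with a median log2 ratio of -0.01 and sums of 12534 CPM in WT wells and 13001 CPM in Renin-null wells. *Tagln* had a ratio of 0.61, *Acta2* of -0.02 and *Myh11*, smooth muscle myosin, of -0.58. Of 4 renin cell genes 2 were lower, *Ren1* and *Akr1b7* (4528 and 2011 CPM, -1.17), while *Gja4*, a connexin, had 0.24 (-0.64 in YFP1 and 0.70 in YFP2). Of 3 mesangial genes 1 was higher, *Itga8* (1.53), beside *Serpine2* (0.66) and *Gata3* (0.41, with -0.10 in YFP1 and 0.73 in YFP2).

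Markers of several other kidney cell types were higher in Renin-null, as were *Abcc9*, *Kcnj8* and *Higd1b*, while those of the collecting duct were mixed. The counts stand beside 52.4% of all genes at least 2-fold higher and 18.5% at least 2-fold lower. Those of YFP1 alone stand beside 45.7% of all genes higher. The share lower in YFP1 is not given, so counts of genes lower in YFP1 are not read as a result. Of 5 fibroblast genes 4 were at least 2-fold higher in Renin-null, with sums of 9.21 CPM in WT wells and 807 CPM in Renin-null wells, led by *Col3a1*, *Col1a1* and *Dcn*, and *Lum* near 0 in both. Of 7 endothelial genes 6 were higher (36.8 and 225 CPM, led by *Emcn*, *Kdr* and *Pecam1*), with 3 of the 7 at 0 in WT. *Emcn* had log2 ratios of -2.66 in YFP1 and 3.55 in YFP2, and in YFP1 alone 4 endothelial genes were higher and 1 lower. Of 6 proximal tubule genes all were higher (20.4 and 204 CPM, led by *Slc34a1*, *Lrp2* and *Slc22a6*), with 1 at 0 in WT, while in YFP1 alone 4 of the 6 were. Of 4 loop and distal tubule genes with a ratio all were higher (0.515 and 109 CPM, led by *Slc12a1*, *Umod* and *Slc12a3*), and *Pvalb* was at 0 in both. Of 5 collecting duct genes 2 were higher and 2 lower (10.6 and 45.7 CPM, led by *Aqp2*, *Hsd11b2* and *Aqp3*), and in YFP1 alone none was higher and 3 were lower. Of 6 macrophage genes with a ratio 5 were higher (1.48 and 10.5 CPM, led by *Cd74*, *Ptprc* and *Csf1r*), with *Adgre1* at 0 in both. *Cd74* had log2 ratios of 4.77 in YFP1 and -3.75 in YFP2, while *Ptprc* and *Csf1r* were higher in both libraries. The part of other cells, or of their RNA, in the values of the 3 higher markers was not tested.

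Traces of *Rgs4*, *Cspg4*, *Mcam* and *Ndufa4l2* in WT wells were more frequent where an index was shared. *Rgs4* had a count in all 15 WT wells that share an index with its highest well and in 26 of 35 that share none, with medians of 10 and 2 counts. *Cspg4* had one in 14 of 15 against 24 of 35, *Mcam* in 14 of 15 against 27 of 35 and *Ndufa4l2* in 13 of 14 against 23 of 36. *Rgs5* had counts in every well of both kinds, with medians of 350 counts where an index was shared with its highest well and 416 where none was. *Abcc9* had a count in 0 of 14 WT wells that share an index and in 4 of 36 that do not. In YFP1 and YFP2 alike, the share of Renin-null wells with a count was larger where an index was shared for *Ndufa4l2* (50.0% with and 36.4% without in YFP1, 71.4% with and 48.5% without in YFP2) and for *Abcc9* (42.9% with and 36.4% without, then 64.3% with and 57.6% without). For *Rgs4* the direction differed between them, with 64.3% with a shared index and 78.8% without in YFP1, and 92.9% and 51.5% in YFP2. For *Mcam* it differed too, with 78.6% and 84.8% in YFP1, and 100% and 81.8% in YFP2. The *Cspg4* shares were 78.6% and 78.8% for YFP1, then 71.4% and 75.8% for YFP2, slightly smaller with a shared index in both. A share of wells with any count is therefore not read as a share of cells that express a marker, and a limit of 10 CPM was used in both genotypes. In wells below 100000 counts, however, any count exceeds 10 CPM, so there the limit does not set traces aside. A Renin-null well of 10502 counts, for example, held 4 markers at that limit. The well filter leaves such shallow wells out.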

How the data were processed

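YFP-positive kidney cells were captured in the Fluidigm C1 System, amplified with SMART-Seq v4 and made into Nextera XT libraries, which have no molecular identifiers and keep no strand. Tools named in the submitters' processing notes are Trimmomatic 0.39 and Salmon 0.11.2, with GRCm38.p6. The authors trimmed reads, quantified transcripts with Salmon, summarised them per gene with tximport (lengthScaledTPM) and deposited the resulting expected counts. These counts are not scaled for depth, and their correction for transcript length can shift a gene's value between wells. No deposited column was set aside.

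Expected counts were rounded, summed over the wells of a genotype, scaled to counts per 1000000 (CPM) and compared as log2 ratios. For a genotype without counts, a floor of 3 counts was used, and genes with 3 counts or fewer in each genotype have no ratio. A gene was called at 2-fold. Intervals (95%) are exact Poisson, exact conditional and Clopper-Pearson intervals, cover counting error only, and PCR copies are not independent molecules. Per-kilobase levels used the longest coding transcript of GENCODE M21. The closest genes were the 5 non-members with the highest Spearman correlation among genes in at least 20% of the wells thinned to 62000 counts.

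The markers and the other gene lists were chosen with earlier results of these data known. Named genes are the 8 markers, *Ren1*, *Akr1b7*, the 3 genes of highest summed CPM in each list, RGS genes of at least 10 CPM in either genotype, the paralogs and the closest genes. *Pdgfrb*, *Notch3*, *Ednra*, *Vtn*, *Art3*, *Actg2* and the genes at 0 were named after their values were seen, as were the single wells described. No doublet caller was run, and wells of other cell types in which a share could serve as background were not analysed here. The 10x Chromium experiment was not analysed here. One marker list is not reported here.

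Alternatives were TMM factors (0.784 for WT, 1.28 for Renin-null), thinned wells, the mean of CPM over wells, the mean log2(CPM + 1) difference, each library alone, the highest well left out, the well filter, CPM without mitochondrial genes, near-identical wells (r of at least 0.95) counted once, SCTransform, genes of at least 100 counts, and limits of 1 count and 100 CPM. Keeping the second well of each pair was chosen after seeing the data. The ratio and its interval were tested on simulated data drawn with counting error alone. That simulation held no spread between wells and no PCR copies, so it does not show that the intervals cover these. The software was Python 3.11.15, numpy 2.4.6, pandas 2.3.3, scipy 1.17.1, matplotlib 3.10.9, R 4.3.3, edgeR 4.0.16 (TMM only), Seurat 5.3.0 and sctransform 0.4.2.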

Additional observations from a re-analysis of the deposited data

Results flagged for a closer look

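The Renin-null libraries YFP1 and YFP2 lay on opposite sides of WT for *Rgs4*, with log2 ratios of 0.11 and -1.52. They did so too for *Mcam*, with -0.96 and 0.48. The difference between the libraries was not tested, since each is 1 pool of wells.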

How the results depend on the processing

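No paired analysis was possible because the wells of the genotypes share only a running number and no result comes from a test. The median log2 ratio of the 8 markers (0.17) was -0.53 with TMM factors, 0.34 as the difference of mean log2(CPM + 1) (0.13 over all genes) and 0.65 in thinned wells. It was -0.073 with the well filter, 0.0089 without mitochondrial genes and 0.13 with near-identical wells counted once. Where only 7 markers had a ratio, their median was 0.79 as the mean over wells of CPM and with SCTransform. For 7 markers it was also 0.11 in YFP1, 0.41 in YFP2 and 0.49 without the highest wells. Markers at least 2-fold lower numbered 3 with TMM factors and 1 in YFP2. Of the further pericyte genes, 5 were higher with TMM factors and in YFP1 and 3 by the difference of mean log2. Of all genes, 43.1% were higher with TMM factors, 45.7% in YFP1 and 9.03% by the difference of mean log2. Further pericyte genes lower numbered 5 with TMM factors and in YFP2, 6 in YFP1 and 1 each by mean CPM, mean log2, thinned wells and SCTransform. Shares of all genes at least 2-fold lower are given for the summed counts only. Counts of lower genes on the other scales thus stand without a background and are not read as a result. Of smooth muscle genes, 3 were higher by mean CPM (59.1% of all genes), 6 by mean log2 (9.03%), 4 in thinned wells (56.9%) and 4 with SCTransform (62.4%), and 3 were lower with TMM factors and 1 in YFP1. The share of WT wells with at least 2 markers was 100% with the well filter, 65.3% in thinned wells, 35.3% at 100 CPM and 98% at 1 count, and that of Renin-null wells 56.2% at 100 CPM and 94.8% at 1 count. *Rgs5* reached 100 CPM in 88.2% of WT and 89.6% of Renin-null wells, and 10 CPM in 100% of filtered and of YFP2 wells. The rho of the markers with *Ren1* in WT was -0.46 with the well filter and 0.035 without mitochondrial genes, that with *Akr1b7* in WT -0.30 and 0.38, and that with *Akr1b7* in Renin-null 0.51 with the filter, 0.53 in YFP2 and 0.41 without *Rgs5*. *Kcnj8* was at -0.35 in thinned wells, where WT had 0 counts and Renin-null 4. That value is a ratio to the floor of 3 counts and gives no direction. The cause of the changes between the alternatives was not tested. Over these alternatives *Abcc9* stayed between 1.06 and 7.21 on the log2 scale, and *Akr1b7* between -1.87 and -0.57. With 1 sample a genotype, no depth of counting gives the spread between mice.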

Other observations

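*EYFP*, the reporter by which the cells were sorted, stood at 317 CPM in WT wells and 1169 CPM in Renin-null wells, with 63.3% of the Renin-null counts in 1 well. It reached 10 CPM in 10 of 51 WT wells and 47 of 96 Renin-null wells. Its Spearman rho with *Rgs5* was 0.19 in WT and 0.24 in Renin-null over all wells, and -0.64 and 0.19 in the wells passing the filter (n = 15 and n = 57). The values over all wells were lower than that of *Rgs5* with *Acta2* (0.59 and 0.73).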
